A study of Mus musculus with 4 samples.

Results

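Cytosolic ribosomal protein genes were examined in CD4+ T cells polarized under Tfh conditions. They were taken by name, as every mouse gene whose symbol starts with Rpl or Rps and a digit or with Rplp, together with Rpsa, leaving out symbols that contain -ps and the Rps6k kinases. The rule gave 93 of the 54752 counted genes. Of these, 31 encode the main proteins of the small subunit, 43 those of the large subunit and 3 those of the stalk, 15 are paralogs or copies of a main gene, and Rps19bp1 encodes a protein that binds a ribosomal protein and is not itself one. Among the copies, Rps4l, Rpl32l, Rpl6l, Rpl37rt, Rps12l1, Rps3a2 and Rps3a3 have no coding sequence in the annotation used here.

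The cells were naïve CD4+ T cells isolated from the spleen with beads and kept for 3 days on plate-bound anti-CD3 with anti-CD28, IL-6 and blocking antibodies to TGF-β, IL-4, IFN-γ and IL-2, after which viable cells were sorted again and their mRNA was sequenced. Mek1/2-tKO mice carried Map2k1 fl/fl, Map2k2 fl/fl and Cd4-Cre, in which the Cd4 promoter drives the recombinase, and WT mice were littermates without the deletion. All were on a C57BL/6 background, and their ages were not given in the sources used here. There were 2 libraries per genotype. The labels do not say whether the 2 came from separate animals or cultures, so p-values measure only the spread between these libraries, which may be technical.

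Ribosomal proteins assemble with ribosomal RNA into the small subunit, which decodes the mRNA, and the large subunit, which forms the peptide bond. Each ribosome holds about one copy of most of them, and the acidic stalk proteins recruit the factors that drive translation. Their mRNAs begin with a 5′ terminal oligopyrimidine (TOP) tract, a C followed by a run of pyrimidines, through which mTORC1 and the RNA-binding protein LARP1 adjust their translation and storage. Activated T cells raise ribosome production as they start to grow and divide.

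Library totals lay between 16330802 and 18931090 counts. Map2k1, one of the deleted kinase genes, stood at 182 and 187 CPM (counts scaled by library size and TMM factor) in WT and at 98.0 and 105 in Mek1/2-tKO, and it was lower with a log2 fold change of -0.86 ± 0.08 (SE, edgeR, adjusted p = 1.29e-06). Map2k2, the other one, stood at 155, 165, 172 and 182 CPM (adjusted p = 0.126, edgeR). Counts over a whole gene cannot tell a transcript without its floxed exons from a complete one. Cd4, which defines the labelled cell type, was at 297 and 289 CPM in the WT libraries and at 18.8 and 25.1 CPM in the libraries labelled Mek1/2-tKO, while the summed level of 13 T-cell markers was 3410 and 3422 CPM against 2894 and 2719, with 1 of the 13 higher and 7 lower. Markers of other cell types were higher in Mek1/2-tKO, with 15 of 15 B-lineage markers (summed 1345 and 1327 against 7242 and 7206 CPM), 5 of 5 gamma-delta T-cell markers (6.98 and 4.36 against 184 and 165 CPM), 2 of 2 CD8 markers (67.4 and 59.3 against 238 and 214 CPM), 8 of 8 NK-cell markers (128 and 132 against 877 and 801 CPM) and all 7 tested of 9 myeloid markers (128 and 119 against 621 and 567 CPM). In the NK-cell sum, Nkg7 alone was at 62.8 and 65.1 CPM in WT and at 436 and 405 in Mek1/2-tKO. Ncr1 was at 0.77 and 0.83 against 11.5 and 9.85 CPM. In the myeloid sum, Cst3 alone was at 69.0 and 67.9 against 377 and 309 CPM. Adgre1 held no count in WT and was tested only through its 66 and 83 counts in Mek1/2-tKO. Csf1r (0 and 8 against 36 and 10 counts) and Itgam (2 and 0 against 3 and 8) were not tested. None of the listed markers was at 0 in all 4 libraries. These differences run along the same axis as every result below, and their part in the ribosomal protein values was not tested. In bulk libraries a change in the makeup of the cells and a change in the RNA of each cell cannot be told apart.

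The start regions of a few genes show the tract that marks this class. The lines give 60 bases of mouse genome GRCm38.p6 around the start that RefSeq annotates, 45 before it and 15 from it on, read along the gene's own strand, with runs of at least 5 pyrimidines within 10 bases of the start in capitals. Rps27 and its copy Rps27rt were chosen because they had the highest fold changes after Rps4l, Rps6 because far more reads were counted on its pseudogene than on the gene, and Rpl4 and Rpl13a because they were near no change.
Rps27 (chr3:90213634-90213693, minus strand): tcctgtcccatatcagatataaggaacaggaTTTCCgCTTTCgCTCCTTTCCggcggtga
Rps27rt (chr9:114982725-114982784, minus strand): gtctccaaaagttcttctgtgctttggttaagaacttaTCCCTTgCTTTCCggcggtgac
Rps6 (chr4:86857353-86857412, minus strand): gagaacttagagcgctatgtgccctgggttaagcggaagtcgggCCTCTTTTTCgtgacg
Rpl4 (chr9:64173342-64173401, plus strand): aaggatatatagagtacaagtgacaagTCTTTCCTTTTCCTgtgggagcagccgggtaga
Rpl13a (chr7:45128731-45128790, minus strand): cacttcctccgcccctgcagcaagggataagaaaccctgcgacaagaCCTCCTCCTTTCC
Rps27, Rps27rt and Rps6 have a C followed by at least 4 pyrimidines exactly at the annotated start. Rpl4 and Rpl13a, which did not pass the test, also hold a pyrimidine run beside the start.

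Among 80 RefSeq start regions of 68 of these genes, 15 (18.75%) had a C followed by at least 4 pyrimidines exactly at the annotated start, against 2.51% of all 32851 start regions. A run of at least 8 pyrimidines within 25 bases of the start was found in 35 (43.75%) of the 80 and in 19.7% of all. The letters CCGGAAGT, a core bound by ETS factors, were found on either strand of the 300-base region from 250 bases before to 50 bases after the start in 12 (15%) against 3.89%. The letters AAGATGGC, a core bound by YY1, were found in 8 (10%) against 2.75%. These are matches of letters in one window and do not show binding.

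Ribosomal protein genes stood at a higher level in Mek1/2-tKO, mostly by under 2-fold. Of the 93 genes, 90 had enough counts to be tested, and 44 of them rose and 0 fell (edgeR quasi-likelihood test, with at least a 1.5-fold change and an adjusted p under 0.05). Over all 14330 tested genes, 19.3% rose and 16.4% fell. At the adjusted p alone, 75 of 90 were higher and 0 lower, against 27.8% and 27.2% of all genes. At an unadjusted p under 0.05, 77 were higher and 1, Rpl3, was lower, and DESeq2 called 42 higher and 0 lower. The median change of all other genes was also higher in short genes, and with that trend on gene length removed, as described below, 35 of the 44 calls were lost and 9 were left, against 17.0% of all genes that rose.

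The median log2 fold change of the 90 genes was 0.59, with quartiles of 0.43 and 0.71, beside 0.02 for all tested genes. In 85 of them both Mek1/2-tKO libraries lay above both WT libraries, which held for 39.5% of all genes, in 1 both lay below, which held for 38.8%, and in 4 the libraries overlapped. Only 3 of the 90 passed a 2-fold threshold, Rps4l, Rps27rt and Rps27, against 12.0% of all genes that were higher and 7.26% lower by this rule. The remaining 41 of the 44 called genes thus lay between 1.5-fold and 2-fold. The 3 genes left untested were near or at 0, with no count for Rpl10l and Rps12l1 in any library, which allows up to 3 counts in each, and 3 counts of Rpl3l, the muscle form of Rpl3, in 1 WT library.

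The rise was larger in 1 of the Mek1/2-tKO libraries. Replicate 1 lay above replicate 2 in 82 of the 90 genes, by a median of 0.21 on the log2 scale, while in WT replicate 1 was the higher in 41 of 90. Without Mek1/2-tKO replicate 1, 25 genes rose and 0 fell, against 15.5% of all tested genes that rose, and without Mek1/2-tKO replicate 2, 56 rose. Scaling by library size alone gave 28 higher and 0 lower, beside 2388 higher and 2848 lower among all tested genes.

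**Figure D1:**
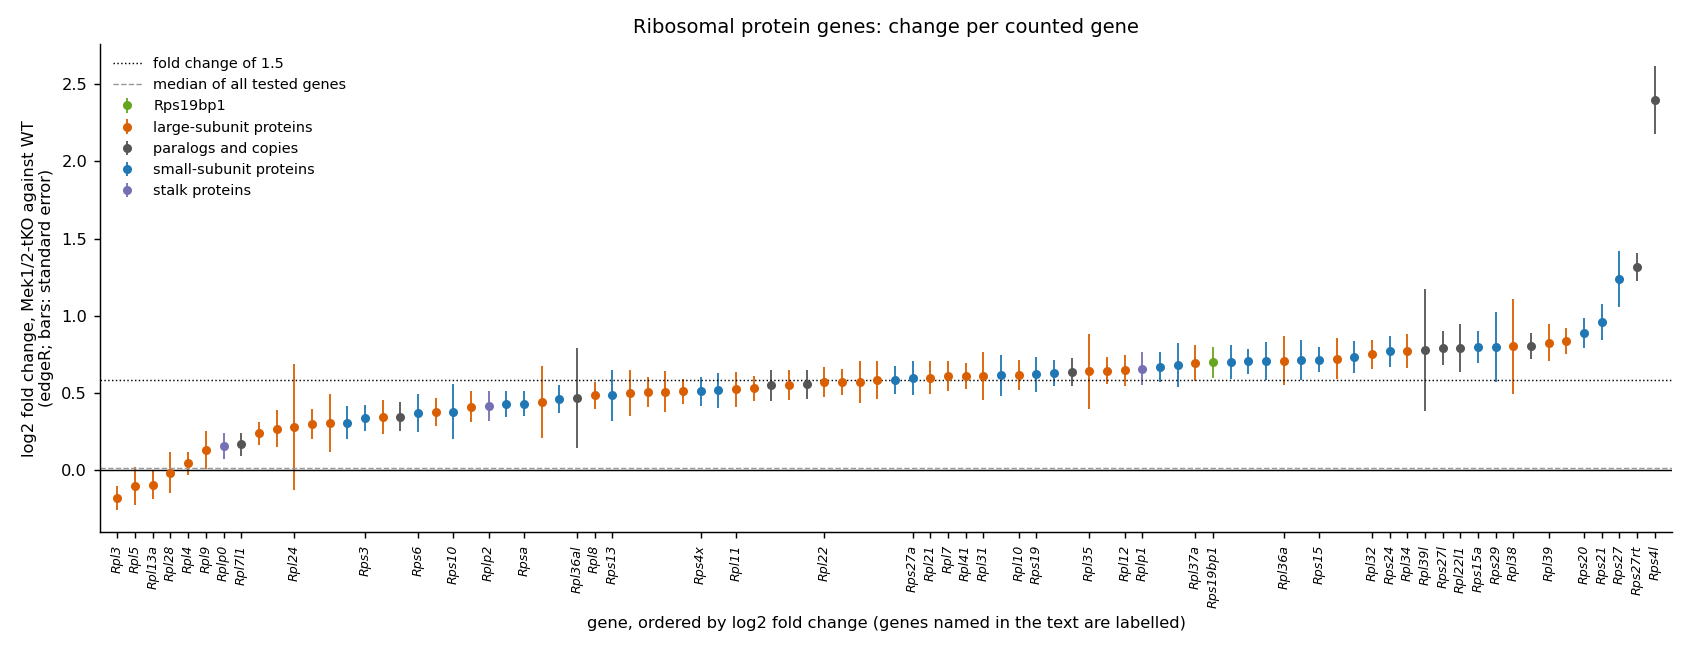
Log2 fold change of Mek1/2-tKO against WT for the tested ribosomal protein genes, 2 of them left out (points, with the edgeR standard error as bars), ordered by size and coloured by the subunit of the protein, with the 1.5-fold line dotted and the median of all tested genes dashed. Most genes lie between 0.4 and 0.8, 4 lie below 0, and Rps4l at 2.40 stands far above the rest.

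Every small-subunit gene was at a higher level in Mek1/2-tKO, most of them by over 1.5-fold. Of the 31, 20 rose, against 19.3% of all genes. All 31 had both Mek1/2-tKO libraries above both WT libraries, which held for 39.5% of all genes. The median log2 fold change was 0.67 and the range 0.31 to 1.24. Rps10 was the one that missed the adjusted p threshold. Rps21, one of the smaller proteins of the subunit, was at 63.2 and 54.6 CPM in WT and at 128 and 102 CPM in Mek1/2-tKO (log2 fold change 0.96 ± 0.12, adjusted p = 1.21e-05). Rps20, which sits in the head of the subunit, went from 640 and 655 to 1344 and 1056 CPM (0.89 ± 0.10, adjusted p = 5.54e-06). In both genes every Mek1/2-tKO library was clear of the WT libraries, and replicate 1 was the higher of the pair. Rps15, among the most abundant per length, went from 951 and 920 to 1643 and 1434 CPM (0.72 ± 0.08, adjusted p = 7.07e-06).

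In their own counts, some of the best-known small-subunit proteins stayed under the 1.5-fold threshold. Rps6, the substrate of the S6 kinases, was counted at 37.7 and 36.8 CPM in WT and at 53.4 and 43.2 CPM in Mek1/2-tKO (log2 fold change 0.37 ± 0.12, adjusted p = 0.0188). Rpsa, which doubles as a laminin receptor precursor, was at 826 and 880 against 1219 and 1084 CPM (0.43 ± 0.08, adjusted p = 0.00048). Rps4x, the X-linked form of S4, was at 556 and 540 against 865 and 700 CPM (0.51 ± 0.09, adjusted p = 0.000383). All 3 passed the adjusted p with libraries that did not overlap. Rps27a, which is made as a fusion with ubiquitin, went from 33.7 and 34.4 to 53.9 and 49.3 CPM and was called (0.60 ± 0.11, adjusted p = 0.000395). Counts of annotated copies, described below, change several of these calls. With them added Rps6 (0.61) and Rps4x (0.60 ± 0.10, adjusted p = 0.000138) passed the fold threshold, and Rps27a (0.54 ± 0.10, adjusted p = 0.00034) no longer did.

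Rps27, a zinc-finger protein of the small subunit, and Rps27rt had the highest fold changes after Rps4l. Rps27 (chromosome 3, 90212522 to 90213651, GRCm38) held 184 and 216 counts in WT and 435 and 389 in Mek1/2-tKO, or 9.44 and 11.2 against 28.1 and 20.7 CPM (log2 fold change 1.24 ± 0.18, adjusted p = 6.37e-05). Rps27rt (chromosome 9, 114982366 to 114982739), a retrotransposed copy in the annotation, held 11096 and 10947 counts in WT and 24005 and 24039 in Mek1/2-tKO, or 569 and 568 against 1551 and 1280 CPM (1.32 ± 0.09, adjusted p = 5.57e-08). In every library the copy held far more reads than the gene it is named after. Of the 150-base windows of the Rps27 transcript, 98.0% also occur in another gene. Summed with their shared copies, the Rps27 reads rose by 1.33 ± 0.09 on the log2 scale (adjusted p = 3.29e-08). Rps27l, the p53-responsive paralog, shares no window and was also called (165 and 180 against 340 and 257 CPM, 0.79 ± 0.11, adjusted p = 4.04e-05).

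**Figure D2:**
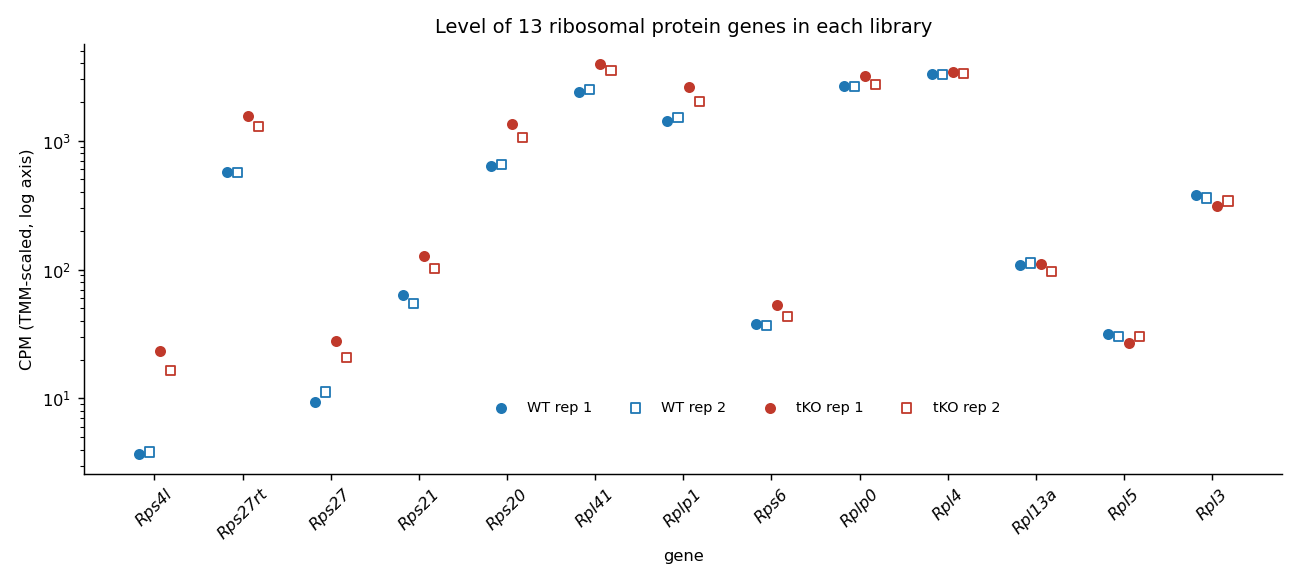
Level of 13 ribosomal protein genes in each of the 4 libraries, in CPM after TMM scaling on a log axis (filled circles: replicate 1, open squares: replicate 2, blue: WT, red: Mek1/2-tKO). The libraries separate by genotype from Rps4l to Rpl4, while for Rpl13a and Rpl5 they overlap, and Rpl3 is slightly lower in Mek1/2-tKO.

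Large-subunit genes covered a wider range, and all 4 genes with a log2 fold change below 0 were among them. Of 43, 16 rose and 0 fell, with a median log2 fold change of 0.53 and a range of -0.18 to 0.84, and DESeq2 called 14 higher and 0 lower. Of all genes, 19.3% rose and 16.4% fell by edgeR. The difference between the subunits was not tested. Rpl39, one of the smallest ribosomal proteins, went from 94.6 and 105 to 203 and 151 CPM (0.83 ± 0.12, adjusted p = 5.63e-05). Rpl41, whose coding sequence spans 75 nt, went from 2398 and 2482 to 3966 and 3491 CPM (0.61 ± 0.08, adjusted p = 3.26e-05). Rpl10, which is added in the last steps of subunit maturation, went from 59.0 and 62.5 to 98.2 and 88.5 CPM (0.62 ± 0.10, adjusted p = 0.000114). Each of them was higher in both Mek1/2-tKO libraries. Rpl7 (0.61 ± 0.10, adjusted p = 0.00015) and Rpl36a (0.71 ± 0.16, adjusted p = 0.00169) were called as well, Rpl7 not with its copies added (0.56 ± 0.10).

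Several large-subunit genes lay near no change, among them Rpl3, Rpl4, Rpl13a, Rpl5 and Rpl28. Rpl4 was among the most counted of all at 3287 and 3251 CPM in WT and 3424 and 3323 in Mek1/2-tKO (log2 fold change 0.05 ± 0.07, adjusted p = 0.631), with the sign turned, at -0.04, when scaled by library size alone. Rpl3, which lies near the peptidyl transferase centre, was at 377 and 359 against 309 and 341 CPM (-0.18 ± 0.08, adjusted p = 0.0623), the only gene with both Mek1/2-tKO libraries below both WT libraries. Rpl13a, which has a second role outside the ribosome in silencing certain mRNAs, was at 108 and 112 against 110 and 96.7 CPM (-0.09 ± 0.09, adjusted p = 0.418). None of the 3 passed the test, nor did Rpl28 (-0.01 ± 0.13, adjusted p = 0.933).

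Rpl5 and Rpl11 form with 5S RNA the particle that binds MDM2 when ribosome assembly fails. Rpl5 was at 31.4 and 30.1 CPM in WT and at 27.1 and 30.2 in Mek1/2-tKO (log2 fold change -0.10 ± 0.12, adjusted p = 0.511), and Rpl11 was at 28.9 and 28.3 against 40.4 and 41.9 CPM (0.52 ± 0.11, adjusted p = 0.00148). The libraries overlapped for the first and not for the second. Rpl8 (0.49 ± 0.09), Rpl22 (0.57 ± 0.10) and Rpl9 (0.13 ± 0.12, adjusted p = 0.377) were also below the fold threshold, and Rpl24 was counted so little, at 37 to 58 counts, that its log2 fold change of 0.28 had an SE of 0.41 and turned to -0.17 without Mek1/2-tKO replicate 1.

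The stalk proteins differed among themselves in their own counts. Rplp1 went from 1409 and 1513 to 2615 and 2002 CPM (log2 fold change 0.66 ± 0.11, adjusted p = 0.000145). Its partner Rplp2 was at 166 and 159 against 242 and 191 CPM (0.42 ± 0.10, adjusted p = 0.00293), under the fold threshold. Rplp0, the base on which both sit and a common reference gene for normalizing RNA measurements, was at 2661 and 2628 against 3174 and 2738 CPM (0.16 ± 0.08, adjusted p = 0.125), and its value was -0.11 with the trend on gene length described below removed. Both Mek1/2-tKO libraries were above WT in all 3. With annotated copies and other partners added, as described below, Rplp1 was at 0.63 ± 0.10 and Rplp2 at 0.73 ± 0.08. Both were then called, and Rplp0, at 0.22 ± 0.08, was not. The differences among the stalk proteins were not tested.

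Of the 12 tested paralogs and copies 6 rose, against 19.3% of all genes, with a median log2 fold change of 0.71. Rps4l (chromosome 6, 148354656 to 148355598), a copy of S4 without an annotated coding sequence that shares no 150-base window with another gene, had the highest fold of all. It held 72 and 74 counts in WT and 361 and 310 in Mek1/2-tKO, or 3.70 and 3.84 against 23.3 and 16.5 CPM (2.40 ± 0.22, adjusted p = 9.05e-07), while the main gene Rps4x held 10403 to 13392 counts. Rpl22l1, which regulates splicing and is kept low by Rpl22, was at 13.5 and 15.6 against 27.4 and 23.2 CPM (0.79 ± 0.15, adjusted p = 0.000636). Rpl39l, known from the testis, had a similar fold change at 28 to 57 counts and did not pass (0.78 ± 0.39, adjusted p = 0.111), nor did Rpl36al (0.47 ± 0.32, adjusted p = 0.236) or Rpl7l1, a nucleolar relative of Rpl7 (0.17 ± 0.07, adjusted p = 0.0659). Rps19bp1, the protein that binds Rps19, went from 57.1 and 58.7 to 102 and 86.3 CPM (0.70 ± 0.10, adjusted p = 6.67e-05).

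Per length of annotated exon, the levels of these genes covered a wide range. The highest mean levels over the 4 libraries were those of Rplp1 at 3778 RPKM, Rps27rt at 2652, Rpl41 at 2640, Rpl8 at 2455 and Rps15 at 1963, and the lowest of a tested main protein were Rpl24 at 2.59, Rps13 at 5.25 and Rps10 at 5.63. Across the 77 main proteins, a gene's level went down as the share of its transcript found in other genes' transcripts went up. Spearman's rho between log2 CPM and the percent of shared windows was -0.59, a description of genes measured in the same libraries. Only uniquely mapped reads were counted, so a read that maps equally well to several places was left out. Some of the other genes overlap the gene itself, such as Gm45713 with Rpl13a and Gm28037 with Rpl24. There a shared window need not lie in another place in the genome. The part of unique mapping in this relation was not tested.

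For many ribosomal proteins, more reads were counted on processed copies than on the gene itself. In 76 of the 93 genes at least 1 window of 150 bases, the read length, also occurs in the transcript of another gene, on either strand. Joining each gene with those partners gave 87 families with 284 partner genes, of which 245 are processed pseudogenes. The rest include protein-coding genes that are not copies, such as Ube2s with Rpl28 and Sphk2 with Rpl18. Copy-summed values hold the counts of all partners, these genes included. The named gene held a median of 21.3% of its family's counts, under 50% in 59 families and under 10% in 31. Rps6 held 735, 709, 826 and 811 counts, while Rps6-ps4 held 24964 and 26230 in WT and 33693 and 34134 in Mek1/2-tKO. Rpl35 held 89 to 153 counts beside 21030 to 29473 on Gm2000, and Rps29 held 95 to 157 beside 16752 to 27225 on Gm14303. For Rplp2 the partner was Wdr89, a gene annotated as protein-coding whose transcripts share windows with it, with 20224 and 22457 counts in WT and 30098 and 33247 in Mek1/2-tKO. Counted reads had been placed as unique, and whether they arose from the gene or from its copy was not tested.

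**Figure D3:**
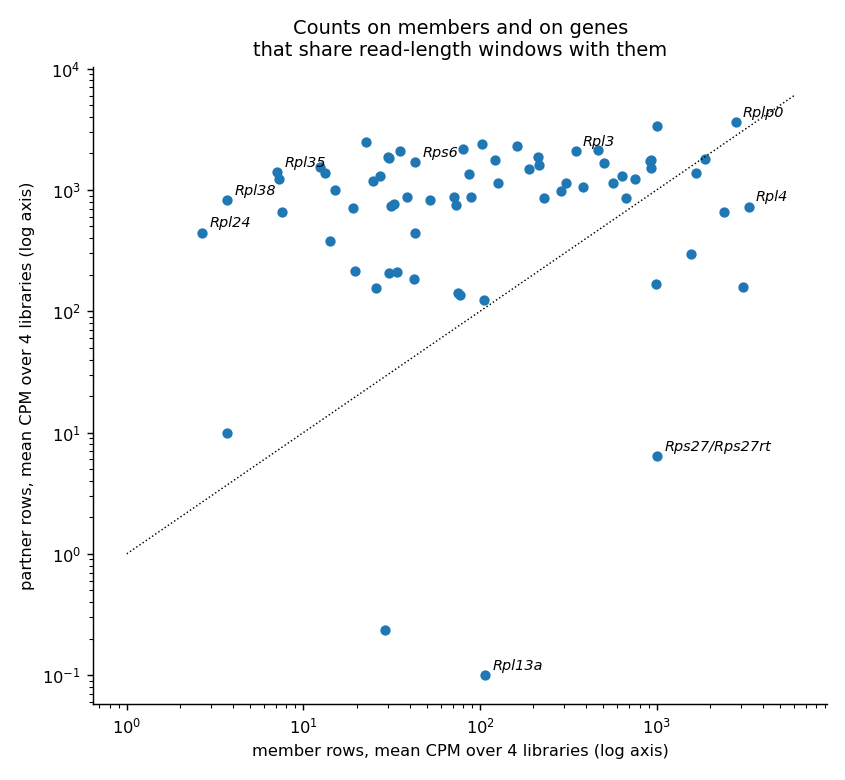
Mean CPM over the 4 libraries of each family's named genes (horizontal, log axis) against that of the genes sharing 150-base windows with them (vertical, log axis), with equality dotted and a partner level of 0 drawn at the lower edge. Most families lie above the line, such as Rpl24, Rpl38, Rpl35 and Rps6, whereas Rps27/Rps27rt, Rpl4 and Rpl13a lie below it.

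With the copies and other partners summed, more of the proteins passed the test and none fell. Of 85 tested families 56 rose and 0 fell (edgeR), against 19.4% and 16.3% of all rows in the same table, and 80 were higher and 0 lower at the adjusted p alone and at the unadjusted p under 0.05 alike. With the copies included, 55 rose by DESeq2. The median was 0.64. Rps6 went from 0.37 for its own row to 0.61 ± 0.09 for the family (1345 and 1419 against 2268 and 1899 CPM, adjusted p = 5.1e-05). Rps10 went from 0.38 to 0.73, Rpl24 from 0.28 to 0.62, Rpl9 from 0.13 to 0.52, Rpl28 from -0.01 to 0.51 and Rplp2 from 0.42 to 0.73. Rpl5 moved from -0.10 to 0.23 ± 0.08 (1763 and 1739 against 2169 and 1890 CPM, adjusted p = 0.0286), which passed the adjusted p and not the fold threshold.

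A few proteins remained near no change with their copies included. Rpl3 was at 2506 and 2481 against 2484 and 2255 CPM (-0.06 ± 0.08, adjusted p = 0.529), and Rpl4 was at 3969 and 3955 against 4209 and 4071 CPM (0.08 ± 0.07, adjusted p = 0.4). Rpl13a was at -0.08 ± 0.09 (adjusted p = 0.494), but its sum held no copy. Its only partner by shared windows, Gm45713, overlaps its own exons and held no counts. Adding pseudogenes by name instead of by shared windows put Rpl13a at 0.31. In the other direction, 6 of the 44 called genes were in families that did not pass, among them Rpl7, Rpl12, Rpl31, Rps27a and Rpl22l1, while 22 genes that were not called were in families that were. The families of Rpl7, Rpl12, Rpl31 and Rps27a were at 0.47 to 0.58, and the Rpl22l1 family was at 229 and 230 against 279 and 204 CPM (0.08 ± 0.11, adjusted p = 0.555), with 3386 to 4205 of its counts on Gm15421. The highest sums were those of Rps4l (2.41), Rpl37a (1.52 ± 0.11), Rps27 (1.33) and Rpl21 (1.03 ± 0.12). The Rpl37a value followed its pseudogene Gm4149, at 1631 and 2332 counts in WT and 5173 and 5763 in Mek1/2-tKO, and the Rpl21 value leaned on Rpl21-ps15, which held 2523 counts in Mek1/2-tKO replicate 2 and 516 in replicate 1.

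The 17 genes without any shared window have no copy identical over a read length in the annotation used here. Of them 15 were tested, 9 rose and 0 fell, and 13 were higher at the adjusted p, against 27.8% of all genes. All 15 had both Mek1/2-tKO libraries above both WT libraries, which held for 39.5% of all genes. Their median log2 fold change was 0.72. They include Rpl8, Rpl22, Rpl32, Rpl39, Rps3, Rps15, Rps21 and Rps27l. Rpl32, often used as a reference gene, went from 1083 and 1161 to 2087 and 1690 CPM (0.75 ± 0.10, adjusted p = 1.85e-05), and Rps3, which also takes part in DNA repair, from 2870 and 2782 to 3845 and 3303 CPM (0.34 ± 0.09, adjusted p = 0.00439), under the fold threshold. The strand setting of the counting was not given in the sources used here. Of 300 pseudogenes named after ribosomal protein genes 133 were tested, and 53 rose and 1 fell with a median of 0.68. Of all tested genes 19.3% rose and 16.4% fell, and 36.1% of other genes with annotated exons of at most 1000 nt rose.

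As a share of all counts, the named genes took 3.81 and 3.84% in WT and 5.47 and 4.90% in Mek1/2-tKO, a difference of 1.36 percentage points. With all partner genes of the families the share was 10.2 and 10.3% in WT and 15.01 and 13.3% in Mek1/2-tKO. The smallest two-sided p that an exact permutation test of 2 against 2 libraries allows is 0.3333, and both shares reached it. The 31 small-subunit genes took 1.47 and 1.48% against 2.21 and 1.96%, and the 43 large-subunit genes 1.54 and 1.56% against 2.08 and 1.90%. Mitochondrial genes moved beside them, from 1.62 and 1.56% to 2.24 and 1.99%, and their part in the shares was not tested.

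Short ribosomal proteins had larger changes than long ones. Among the 77 main proteins, the 25 with a coding length of at most 400 nt gave 19 called genes and a median log2 fold change of 0.78 for the copy-summed counts, the 30 from 400 to 600 nt gave 15 and 0.70, and the 22 above 600 nt gave 3 and 0.48. By the same rule 19.3% of all tested genes rose. Rpl4 and Rpl3, with the longest coding sequences at 1257 and 1209 nt, were those near no change, followed by Rplp0 (951 nt), Rpl5 (891 nt) and Rpsa (885 nt). Rpl13a, at 609 nt, lay below proteins of its length. Over the 77 proteins Spearman's rho between copy-summed change and coding length was -0.69 and Pearson's r was -0.70, a description of genes from the same 4 libraries.

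**Figure D4:**
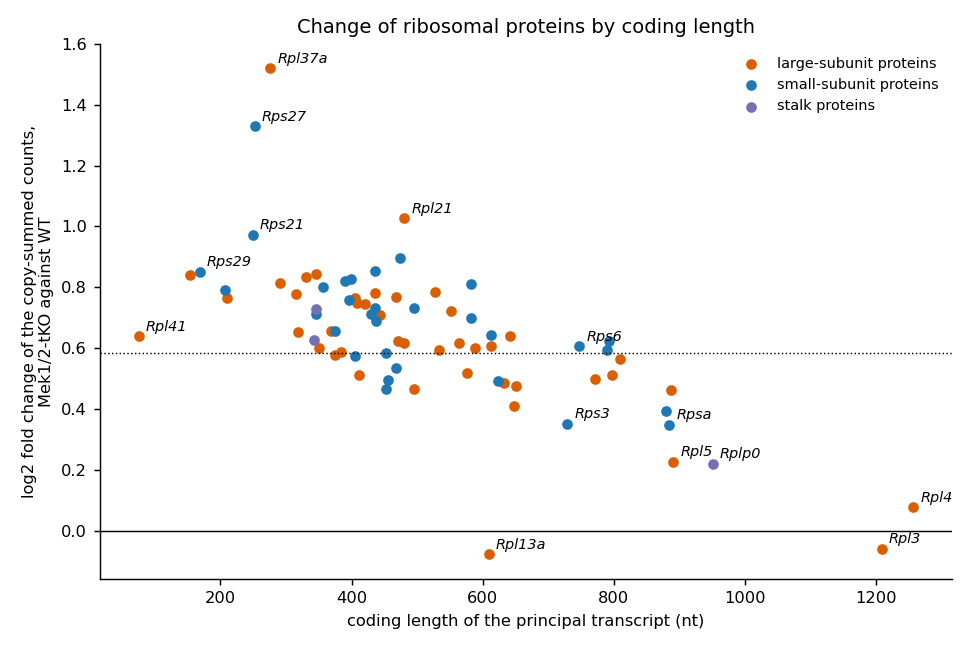
Log2 fold change of the copy-summed counts (vertical) against the coding length in nt of the principal transcript (horizontal) for the 77 main ribosomal proteins, coloured by subunit, with the 1.5-fold line dotted. Values go down from above 0.6 in most of the shortest proteins to near 0 for Rpl3 and Rpl4.

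Other genes also had larger changes when short, here by annotated exon length and not coding length. The 2 measures differ for the 77 main proteins. For the change of each gene's own counts, Spearman's rho was -0.26 with exon length and -0.61 with coding length. Pearson's r was -0.14 and -0.63. Among genes other than ribosomal protein genes, the median log2 fold change was 0.51 where the annotated exons spanned at most 1000 nt (1677 genes), 0.32 from 1000 to 2000 nt (1795 genes), 0.10 from 2000 to 4000 nt (3924 genes) and -0.28 above 4000 nt (6554 genes). Ribosomal protein genes in those classes had medians of 0.73, 0.61, 0.50 and 0.70, from 20, 35, 29 and 6 genes. They were thus above the other genes in every class, by the least among the shortest genes. Exon length can far exceed coding length, as in Rps15a, with 390 nt of coding sequence in a transcript of 5179 nt. Members in the longer classes can therefore hold short coding sequences, and the part of this in the class differences was not tested. When a smooth trend on exon length was taken out, 9 of the 90 rose and 0 fell, a share below that of all genes, and the median was 0.35. The 9 were Rps4l, Rps15a, Rps24, Rps20, Rps27, Rps19, Rps27rt, Rpl12 and Rpl34. Of the 85 tested families 14 rose with the trend removed, where 17.0% of all genes rose in the single-gene fit with that trend removed. The family median went from 0.64 to 0.39, while the Rps15a family went up from 0.82 to 1.07. The length trend moves with the genotype and with the marker levels given above, and its source was not tested.

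**Figure D5:**
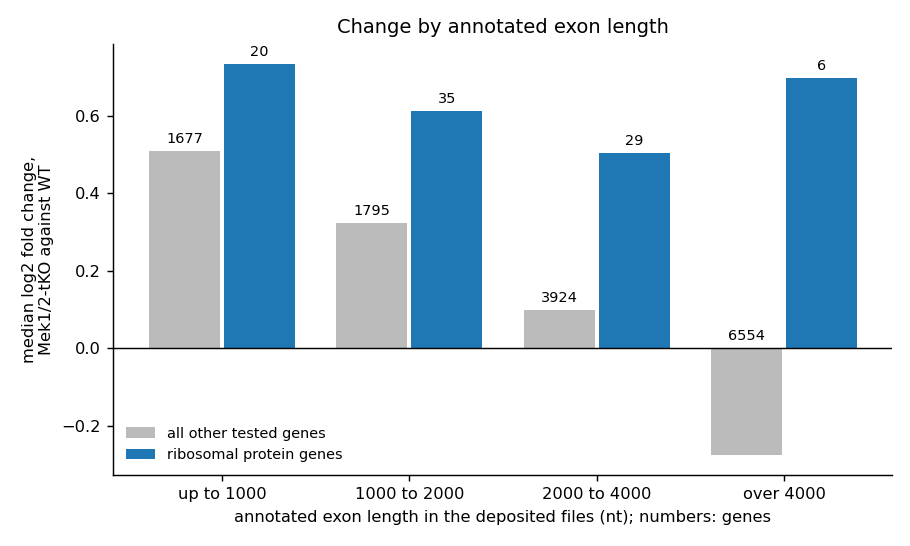
Median log2 fold change of Mek1/2-tKO against WT (bars from 0) in 4 classes of annotated exon length, for all other tested genes (grey) and ribosomal protein genes (blue), with the number of genes at each bar. Other genes go from 0.51 in the shortest class to -0.28 in the longest, and the blue bars stay between 0.50 and 0.73.

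Other genes of translation did not follow the ribosomal proteins as a class. Among cytosolic ribosome proteins that the naming rule leaves out, Fau, made as a fusion of a ubiquitin-like protein with S30, was higher (16.2 and 14.8 against 32.7 and 30.6 CPM, log2 fold change 1.03 ± 0.14, adjusted p = 2.56e-05). Rack1, the scaffold on the small-subunit head (3067 and 3112 against 4247 and 3672 CPM, 0.36 ± 0.09, adjusted p = 0.00283), stayed under the fold threshold. Of 5 elongation factors 0 were called in either direction by edgeR or DESeq2, while 2 were higher and 1 lower at an unadjusted p under 0.05, and the median was 0.10. Eef1a1, which delivers aminoacyl-tRNA, was at 6991 and 7101 against 7796 and 7352 CPM (0.10 ± 0.08, adjusted p = 0.284), and Eef2, which moves the ribosome along the mRNA, was at 6874 and 7264 against 4882 and 5184 CPM (-0.49 ± 0.08, adjusted p = 0.000163), under the fold threshold.

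Of 34 initiation factor genes 0 rose and 5 (14.7%) fell by edgeR and by DESeq2 alike, near the 16.4% of all genes that fell, with 9 higher and 11 lower at an unadjusted p under 0.05 and a median of -0.07. The lower genes were Eif4g1, the scaffold of the cap-binding complex (904 and 948 against 448 and 490 CPM, -0.98 ± 0.08, adjusted p = 2.09e-07), Eif5b, which joins the subunits (-0.83 ± 0.09, adjusted p = 5.55e-06), Eif4g3, Eif3a and Eif4b. Among 20 other genes known to carry a TOP tract, which share members with the lists above, 4 (20%) rose and 2 (10%) fell, with a median of 0.26, where all genes gave 19.3% and 16.4%. At the adjusted p alone 12 of the 20 were higher and 5 lower, against 27.8% and 27.2% of all genes. Vim (189 and 197 against 523 and 512 CPM, 1.42 ± 0.07, adjusted p = 3.02e-09), Tpt1 (1.23 ± 0.11, adjusted p = 5.88e-07), Fau and Naca rose, and Pabpc1 and Eif4b fell. Vim encodes an intermediate filament protein and Tpt1 a growth-associated protein, and neither is part of the ribosome.

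Among genes of the S6 kinases and of mTORC1 signalling to LARP1, calls were downward and not shared by all. Of 20 tested genes 0 rose and 8 (40%) fell by edgeR and by DESeq2, beside 16.4% of all genes that fell, with 1 higher and 12 lower at an unadjusted p under 0.05, and the median was -0.48. Rheb, which activates mTORC1, had a log2 fold change of 0.49 ± 0.10 (adjusted p = 0.00104), under the fold threshold, and 4 other genes of the list were also above 0. Larp1, which binds the TOP tract, was at 463 and 456 CPM in WT and at 189 and 226 in Mek1/2-tKO (log2 fold change -1.14 ± 0.09, adjusted p = 1.54e-07). Rptor, the subunit of mTORC1 that recruits its substrates, was at 36.1 and 41.1 against 18.5 and 21.5 CPM (-0.95 ± 0.13, adjusted p = 4.59e-05). Of the RSK kinases downstream of ERK, Rps6ka1 (165 and 170 against 102 and 105 CPM, -0.69 ± 0.08, adjusted p = 8.84e-06) and Rps6ka3 (-0.76 ± 0.10, adjusted p = 3.46e-05) fell. The S6 kinase gene Rps6kb1 was at 71.1 and 68.4 against 59.2 and 56.4 CPM (-0.27 ± 0.10, adjusted p = 0.029), under the fold threshold and at 0.087 with the length trend removed. With the length trend removed, 5 of the 14 lower calls among the 71 genes of these lists were left.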

How the data were processed

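mRNA of 2 WT and 2 Mek1/2-tKO libraries was sequenced as paired 150-base reads. Reads were trimmed with Trimmomatic 0.36, mapped to GRCm38 with a program the methods write as STRA, and uniquely mapped reads were assigned to genes with featureCounts of Subread 1.5.1. The authors deposited raw counts per gene, with exon length, and no normalization. The annotation release and strand setting were not given in the sources used here.

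In R 4.3.3, edgeR 4.0.16 was run with filterByExpr and TMM scaling, and its robust quasi-likelihood test was adjusted over the 14330 genes kept (Benjamini-Hochberg). Calls required a 1.5-fold change or more with the adjusted p under 0.05. The dispersion common to all genes was 0.00842. Replicates differed by more than counting noise (chi-square per gene 4.11 in WT and 10.7 in Mek1/2-tKO). RPKM was CPM per 1000 nt of deposited exon length. The fit was tested on simulated counts.

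Symbols were matched to 54723 of 54752 identifiers. Windows of 150 bases were compared across GENCODE M21 transcripts, whose identifiers and versions matched 53861 of the genes. Coding length was taken from the same annotation, and start regions came from RefSeq. Length trends were lowess curves of log2 fold change on exon length (span 0.3), used as offsets.

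The members and lists were chosen with earlier results of these data known. Genes were named by rule: key members, members with their paralogs, in each direction the 6 called members that changed most (average log2 CPM 3 or more), the 5 highest and 3 lowest main genes by RPKM, the 3 nearest no change (average log2 CPM 5 or more), the other ribosome proteins, kinases and factors, and the deleted genes. Others were named after their values were seen, and 3 genes that the rule or lists hold are not reported here. Alternatives were DESeq2 1.42.0, other scalings and filters, a replicate block, other thresholds, removal of length and GC trends, counts with pseudogenes added and leaving out each library. Copy-summed families and the trend fitted on the other genes were added after seeing the data.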

Additional observations from a re-analysis of the deposited data

How the results depend on the processing

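No member fell under any setting run. The count of 44 higher genes was 42 with DESeq2 and 46 with its size factors, 47 with TMM fitted without these genes, 43 with no filter, 49 with at least 10 counts in every library, and 53 with named pseudogenes added. It was 28 with library size alone, 75 at the adjusted p alone and 3 at a fold change of at least 2. Over all tested genes, 2768 were higher in the main fit, 2444 with DESeq2, 2780 with its size factors and 2821 with TMM fitted without these genes. The all-gene count was 2776 with no filter, 2363 with at least 10 counts in every library, 2749 with named pseudogenes added and 2388 with library size alone. Leaving out each library gave 25 to 56, the lowest without Mek1/2-tKO replicate 1. With the trend removed it was 9 (length), 11 (GC and length) and 11 (length, fitted on the other genes), and the median log2 fold change of 0.59 became 0.35, 0.34 and 0.36. By construction these fits take out what the members share with other genes of their length. The cause of the trend was not tested.

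Among the other translation genes the 4 higher calls became 19 and the 14 lower calls 26 at the adjusted p alone. Lower calls were 5 under each of the 3 trend fits, and 1 at a fold change of at least 2.

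Signs turned for genes near no change, and for them the cause was not tested. With the trend removed (length, GC and length, and length fitted on the other genes) the log2 fold changes were -0.11, -0.13 and -0.10 for Rplp0, -0.19, -0.15 and -0.19 for Rpl4, -0.054, -0.077 and -0.024 for Rpl24, -0.052, -0.0011 and -0.047 for Eef1a1, and 0.087, 0.073 and 0.087 for Rps6kb1. Rpl5 was at 0.0043 with GC and length removed and at 0.16 with named pseudogenes added, which put Rpl13a at 0.31. Rpl4 was at -0.040 with library size alone, and Rpl24 lay between -0.17 and 0.63 when each library was left out, the lowest without Mek1/2-tKO replicate 1. Of the other values of named genes, 679 kept direction and call, 58 lost their call and 8 gained one.

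Across genes, same-numbered libraries deviated from their group means with a correlation of -0.026, so the numbers were not taken as pairs. With a replicate block 43 members were higher, and all 43 were called without it. With 2 libraries per genotype, the spread rests on few degrees of freedom. Members with under 60 counts, such as Rpl24 and Rpl39l, had standard errors near 0.4.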
